A study of Mus musculus with 13 samples.

Results

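Genes that mark T cells, natural killer (NK) cells, B cells and plasma cells were followed in epididymal fat and in prostate tumours of mice with and without p62 in their adipocytes. The 36 genes were chosen by symbol: 11 of the T cell receptor and T cell lineage, 11 of NK cells and cytotoxic granules, 4 of regulatory T cells and checkpoints, 6 of B cells and 4 of plasma cells. All 36 were found among the 23360 genes of the fat table and the 24421 genes of the tumour table. All mice were C57BL/6, carried the TRAMP transgene, which drives prostate cancer, were 30 to 35 weeks old and ate a regular diet. The wild-type mice were TRAMP+;p62f/f, with a floxed and unrecombined p62 gene. The knockout mice were TRAMP+;p62aP2KO, in which Cre under the aP2 promoter, also known to be active in some macrophages, was to remove p62 from adipocytes, so tumour cells and lymphocytes were not meant to lose it. There were 3 wild-type and 3 knockout libraries of fat, and 4 wild-type and 3 knockout libraries of tumour, 13 in all. Whether every library had its own mouse is not stated, and p-values here reflect spread among libraries that may in part be technical.

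T cells recognise antigen through a receptor whose signal passes through the CD3 chains and CD247 to the kinases LCK and ZAP70. NK cells and cytotoxic T cells kill through granzymes and perforin, and regulatory T cells, defined by FOXP3, restrain the others. B cells signal through CD79A and CD79B and mature into plasma cells, which secrete antibody. Visceral fat and prostate tumours hold resident and infiltrating lymphocytes, generally fewer than macrophages. In bulk tissue, fewer cells of a type and less RNA per cell cannot be told apart.

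Sqstm1, the gene of p62, was read first because in fat it checks the labels. Levels are given in FPKM in fat, which are scaled for gene length and depth, and in CPM in tumours, which are counts scaled for depth alone. In fat it stood at 73.6, 1.77 and 84.3 FPKM in wild type 1 to 3, against 4.53, 54.5 and 2.58 FPKM in knockout 1 to 3. In tumours, which were not designed to lose it, it stood at 173, 5.65, 167 and 151 CPM in wild type 1 to 4 and at 8.97, 176 and 19.5 CPM in knockout 1 to 3. In fat the libraries numbered 2 therefore went against their labels. The tumours had the same pattern, with wild type 2 low and knockout 2 high. There the labels predict no loss, so the low values of wild type 2 and of knockout 1 and 3 are all unexplained by the design. Their cause was not tested. Groups are named by their labels throughout, and main results are also given without both libraries numbered 2. The tissues carried their defining markers: 10 adipocyte genes summed to 10610 to 23760 FPKM in fat, and 11 prostate epithelial genes to 3414 to 15940 CPM in tumours. Total tumour counts ran from 17810397 to 32475051 per library. The fat table gives no counts, but by the steps between its low values 1 read in a gene of 1 kilobase was worth 0.177 to 0.234 FPKM in 5 libraries and 0.073 FPKM in knockout 2. This puts knockout 2 at about 1.51e+07 reads in genes and the others at 5.02e+06 to 6.65e+06.

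The promoters of the 5 lymphocyte genes with the smallest p-values in the tumours are shown first (RefSeq, GRCm38.p6, 250 bases before to 50 after the start, gene strand, 5′ to 3′). Il7r, for the interleukin-7 receptor that T cells need to survive, starts in the window chr15:9529827-9530126 (minus strand). Cd79a, for a signalling chain of the B cell receptor, starts in chr7:24897247-24897546 (plus strand). Klrb1c, for the NK1.1 antigen, starts in chr6:128788592-128788891 (minus strand). Pdcd1, for the inhibitory receptor PD-1 of activated T cells, starts in chr1:94052504-94052803 (minus strand), and Pou2af1, for a B cell coactivator of octamer-binding factors, in chr9:51213440-51213739 (plus strand). Capitals mark the ETS-type motif GGAAGT or its reverse complement, and in Cd79a also the E-box CAGGTG.
Il7r: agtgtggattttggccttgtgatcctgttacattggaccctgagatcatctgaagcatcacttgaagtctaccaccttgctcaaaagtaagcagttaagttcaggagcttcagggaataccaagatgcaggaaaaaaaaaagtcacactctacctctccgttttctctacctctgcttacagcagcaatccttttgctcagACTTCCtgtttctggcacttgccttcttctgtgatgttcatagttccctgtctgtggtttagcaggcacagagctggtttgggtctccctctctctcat
Cd79a: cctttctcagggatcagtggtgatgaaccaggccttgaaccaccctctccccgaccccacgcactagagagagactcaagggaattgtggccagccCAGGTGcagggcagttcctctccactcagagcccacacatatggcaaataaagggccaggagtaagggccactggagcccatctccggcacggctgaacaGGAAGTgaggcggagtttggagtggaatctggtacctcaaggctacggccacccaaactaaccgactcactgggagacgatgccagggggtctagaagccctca
Klrb1c: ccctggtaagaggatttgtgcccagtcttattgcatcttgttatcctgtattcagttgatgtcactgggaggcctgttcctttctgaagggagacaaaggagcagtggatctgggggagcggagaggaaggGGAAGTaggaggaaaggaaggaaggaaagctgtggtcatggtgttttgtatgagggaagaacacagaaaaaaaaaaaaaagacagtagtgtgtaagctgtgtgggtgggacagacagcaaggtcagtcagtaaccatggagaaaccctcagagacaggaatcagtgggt
Pdcd1: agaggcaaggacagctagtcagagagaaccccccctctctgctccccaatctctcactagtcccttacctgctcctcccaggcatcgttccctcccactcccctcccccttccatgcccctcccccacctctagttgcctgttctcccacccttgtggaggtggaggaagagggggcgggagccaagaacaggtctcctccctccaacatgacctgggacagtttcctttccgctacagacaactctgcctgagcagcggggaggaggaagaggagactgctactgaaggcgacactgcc
Pou2af1: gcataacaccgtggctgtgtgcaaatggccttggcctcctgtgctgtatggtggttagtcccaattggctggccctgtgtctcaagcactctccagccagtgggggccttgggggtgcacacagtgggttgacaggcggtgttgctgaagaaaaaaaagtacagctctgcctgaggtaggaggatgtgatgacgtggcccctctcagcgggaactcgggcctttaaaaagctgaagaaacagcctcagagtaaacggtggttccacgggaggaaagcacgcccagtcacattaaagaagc
Of the 36 genes 27 had such a promoter. The ETS-type motif was found on either strand in 12 of the 27, against 23.77% of 32851 promoters of this length, and the E-box in 12, against 20.21%. The octamer ATTTGCAT was found in 0 of the 27 (1.735% of promoters), and the palindromic EBF-type motif in 1, that of Cd22 (0.9041%). The motifs did not overlap each other in the promoters printed. A match is a description of letters and not evidence of binding.

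Most of the 36 transcripts were scarce in both tissues. In fat, 24 of the 36 genes were above 0 in all 6 libraries and 0 were at 0 throughout. The median of their mean levels was 0.632 FPKM, against 10.2 FPKM for all genes tested. Only 12 reached the mean of 1 FPKM set for testing: Cd3d, Cd3g, Cd247, Cd2 and Il7r among the T cell genes, Klrk1 and Ncr1 among the NK genes, Foxp3, the B cell genes Cd79b and Cd22, and the plasma cell genes Tnfrsf17 and Tnfrsf13b. By the estimated read steps the genes held between 8.2 reads over all 6 libraries (Gzmk, a granzyme) and 2685 (Il7r), with a median of 63.8. Only 5 genes had an estimated 10 reads or more in every library. Knockout 2 had 0 genes at 0, and knockout 3, the shallowest library, had 9.

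More of the list passed the filter in tumours, but filter and depth differed from fat, so the numbers of genes tested are not a like comparison. The fat filter was scaled for gene length and the tumour filter was not. Per kilobase of length, Cd3e ranked 12 of 36 in tumours at a mean of 1.05 CPM, and Cd3d ranked 13 at 0.985 CPM. In tumours 32 genes had a count in all 7 libraries and 18 had at least 10 counts in each, but 0 had at least 100 in each. The filter for testing kept 30. Gzmk, Prf1 (perforin), Ctla4 (an inhibitory receptor), Pax5 (the B cell identity factor), Tnfrsf17 and Tnfrsf13b were below it. The 36 genes together held 655 to 3004 counts per library, and the median of their mean levels was 1.30 CPM, against 28.7 CPM for all genes tested. Of the 30 tested, Ncr1, Eomes, Tbx21 and Cd79a had fewer than 3 wild-type libraries at the filter's level of 0.497 CPM. These passed only with knockout libraries counted.

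**Figure D1:**
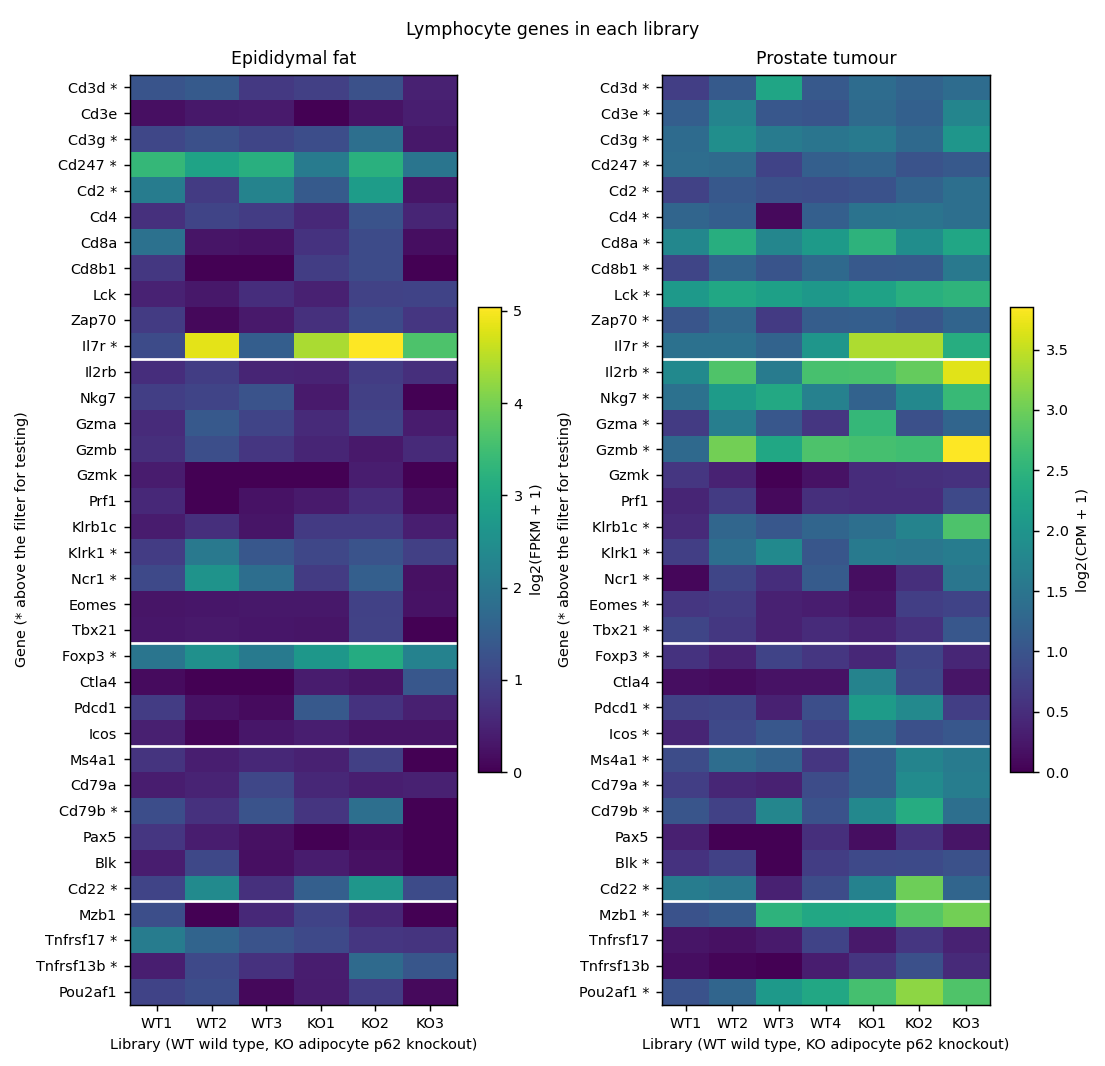
Level of each of the 36 genes (rows, in order of lineage, with white lines between lineages) in each library (columns), as log2(FPKM + 1) in fat and log2(CPM + 1) in tumours. An asterisk marks genes above the filter for testing, 12 in fat and 30 in tumours. Il7r is the brightest row in fat, in wild type 2 and knockout 1 to 3.

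Levels per length ordered the genes differently in the tissues. In fat Il7r came first (mean 15.6 FPKM), followed by Cd247 (6.37), Foxp3 (4.60), Cd2 (2.62) and Cd22 (2.41). In tumours Mzb1, an endoplasmic reticulum helper of antibody assembly, came first (mean 4.43 CPM per kilobase), followed by the granzyme gene Gzmb (4.26), Nkg7, of cytotoxic granules (3.27), and Cd3g (2.06). The ranges of neighbours in this order overlapped: Mzb1 ran from 1.06 to 7.91 CPM per kilobase and Gzmb from 1.04 to 9.37. Foxp3 ranked 3 of 36 in fat and 35 in tumours, and Cd247 ranked 2 and 27.

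Both of these genes share exon sequence with a neighbour on the other strand, and the strand setting of the counting is not stated in the labels. In fat Foxp3 stood at 2.89, 4.76 and 3.22 FPKM in wild type 1 to 3, against 5.38, 7.60 and 3.74 FPKM in knockout 1 to 3. Ccdc22, which overlaps it, stood at 3.67, 4.57 and 3.29 FPKM and at 5.34, 6.28 and 2.89 FPKM in the same libraries. The levels of the pair were furthest apart in knockout 2, and Foxp3 was above Cd4 and Cd3e in all 6. In tumours Foxp3 ran from 0.338 to 0.726 CPM and Ccdc22 from 17.9 to 41.3 CPM, values not set per length. Pou2f1, which overlaps Cd247, stood at 4.24 to 8.34 FPKM in fat, near the 2.91 to 9.22 FPKM of Cd247. How much of the fat level of Foxp3 and Cd247 belongs to these neighbours was not tested. Exons of Cd3e, Lck, Klrb1c, Eomes, Cd22 and Mzb1 also overlap another annotated gene.

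In fat, the lymphocyte genes did not separate the genotypes. Il7r had the largest difference: it was low in wild type 1 and 3 and high in the other 4 libraries. Among the genes tested Tnfrsf17 (BCMA, a survival receptor of plasma cells) alone had groups that did not overlap, with lower values in knockout at a few estimated reads per library. Of the 12 genes tested, limma called 0 (adjusted p 0.345 to 0.998), against 0.00734% of all 13617 genes tested, and 0 had an unadjusted p under 0.05, against 15% of all genes. Log2 fold changes were positive for 4 (50.5% of all genes) and negative for 8, with a median of -0.22, against 0.01 for all genes tested. Without both libraries numbered 2 the median was -0.33, limma called 0, and 3 of 12 genes (Il7r, Cd247 and Cd2) had an unadjusted p under 0.05, against 12.3% of all genes in that fit. Fold changes in fat are on the log2(FPKM + 1) scale, which understates those of low genes.

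Il7r stood at 1.22, 27.4 and 1.84 FPKM in wild type 1 to 3, against 20.0, 31.9 and 11.5 FPKM in knockout 1 to 3. The library labelled wild type 2, which had the lowest Sqstm1, was above 2 of the 3 knockout libraries, so the groups overlapped. The log2 fold change was 1.87 (SE 0.93, limma adjusted p = 0.390), and 2.69 without both libraries numbered 2 (adjusted p = 0.224). Leaving out single libraries moved it between 1.19 and 3.03. Il7r alone made up 2.87% and 5.01% of the summed level of the 36 genes in wild type 1 and 3, and 35.9% to 40.3% in the other 4 libraries.

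The remaining T cell genes did not follow Il7r. Cd3d, a CD3 chain, stood at 1.46, 1.70 and 0.789 FPKM in wild type and at 0.942, 1.37 and 0.374 FPKM in knockout. Cd3g, another, stood at 1.12, 1.36 and 1.08 FPKM and at 1.29, 2.58 and 0.257 FPKM. Knockout 3 was lowest for both, and the groups overlapped. Cd2, an adhesion receptor, spanned 0.846 to 3.78 FPKM in wild type and 0.224 to 5.86 FPKM in knockout. Cd247 stood at 9.22, 6.56 and 8.09 FPKM in wild type and at 3.28, 8.19 and 2.91 FPKM in knockout. Its log2 fold change was -0.73 (SE 0.36, limma adjusted p = 0.385). Knockout 2 lay within the wild-type range, and without both libraries numbered 2 the difference was -1.24 (adjusted p = 0.284). Cd8a, for the co-receptor of cytotoxic T cells, reached 2.66 FPKM in wild type 1 but 0.146 to 1.22 FPKM in the other libraries. Its partner Cd8b1 was listed at 0 in 3 libraries (wild type 2 and 3 and knockout 3). Cd4, Cd3e, Lck and Zap70 had means under 1 FPKM. With the T cell list taken without Il7r, a choice made after its values were seen, the sums were 20.5, 12.3 and 15.9 FPKM in wild type and 10.2, 24.3 and 6.45 FPKM in knockout.

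Both NK genes tested had lower means in knockout fat, within overlapping ranges. Ncr1, for the NK receptor NKp46, stood at 1.16, 5.06 and 2.54 FPKM in wild type and at 0.842, 1.88 and 0.167 FPKM in knockout (limma log2 fold change -0.97, SE 0.51, adjusted p = 0.412). Klrk1, for the activating receptor NKG2D, stood at 0.869, 3.13 and 1.57 FPKM and at 1.10, 1.43 and 0.927 FPKM (log2 fold change -0.34, SE 0.39, adjusted p = 0.707). Wild type 2 was the highest library for both. The other 9 genes of this lineage had means between 0.106 FPKM (Gzmk) and 0.854 FPKM (Gzma, a granzyme) and were below the filter. Gzmb was one of them: its knockout libraries (0.437, 0.264 and 0.521 FPKM) lay below the wild-type ones (0.605, 1.31 and 0.733 FPKM), at an estimated 3.2 to 10.7 reads per library.

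Among regulatory and checkpoint genes, Foxp3 alone was tested (log2 fold change 0.49, SE 0.30, limma adjusted p = 0.479). Ctla4 was listed at 0.106, 0 and 0 FPKM in wild type and stood at 0.307, 0.223 and 1.59 FPKM in knockout. These values do not overlap, but they rest on an estimated 1.0 read in wild type and 3.0, 5.9 and 13.1 reads in knockout. Pdcd1 (PD-1) ran from 0.103 to 1.64 FPKM and Icos, a costimulatory receptor, from 0.0522 to 0.361 FPKM, both with overlap.

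Of the B and plasma cell genes in fat, those tested overlapped between genotypes with the exception of Tnfrsf17. Cd22, an inhibitory B cell receptor, stood at 1.06, 4.36 and 0.614 FPKM in wild type and at 1.88, 5.30 and 1.23 FPKM in knockout (limma log2 fold change 0.39, SE 0.57, adjusted p = 0.769). Cd79b stood at 1.29, 0.640 and 1.43 FPKM and at 0.711, 2.58 and 0 FPKM (log2 fold change -0.19, SE 0.53, adjusted p = 0.888). Cd22 was highest in the libraries numbered 2 of both genotypes. Pax5 stood at 0.730, 0.317 and 0.177 FPKM in wild type and at 0, 0.128 and 0 FPKM in knockout, with no overlap but below the filter. Ms4a1 (CD20), Cd79a and Blk, a B cell kinase, had means of 0.472, 0.508 and 0.347 FPKM.
Tnfrsf17 stood at 3.31, 2.09 and 1.46 FPKM in wild type and at 1.16, 0.736 and 0.691 FPKM in knockout. It was the 1 tested gene whose groups did not overlap, lower in knockout, where 11.3% of all genes tested were lower in this way and 9.87% higher. The log2 fold change was -0.79 (SE 0.35, limma adjusted p = 0.345), at an estimated 13.3, 9.6 and 6.0 reads in wild type and 4.8, 8.2 and 2.4 in knockout. Tnfrsf13b (TACI), a related receptor, stood at 0.335, 1.16 and 0.650 FPKM and at 0.323, 2.34 and 1.54 FPKM (log2 fold change 0.41, SE 0.47, adjusted p = 0.699). The pair thus had opposite signs. Mzb1 and Pou2af1 had means of 0.545 and 0.604 FPKM.

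In tumours, most lymphocyte genes had higher values in knockout. The largest fold changes among genes tested were those of Il7r, Cd79a, Pdcd1 and Klrb1c, and those of the CD3 genes ran from -0.16 to 0.28, or from -0.24 to 0.82 without both libraries numbered 2. Log2 fold changes were positive for 27 of 30 genes tested, against 43.2% of all 15117 genes tested, with a median of 0.61 against -0.07 for all genes. By lineage the medians were 0.27 for T cell genes, 0.44 for NK genes, 0.69 for regulatory and checkpoint genes, 1.15 for B cell genes and 1.29 for plasma cell genes. Without both libraries numbered 2 they lay closer together, at 0.51, 0.85, 0.88, 0.86 and 0.95. Differences between lineages were not tested. The edgeR test called 0 of the 30 (adjusted p 0.195 to 0.978), as it called 0% of all genes, and voom also called 0. DESeq2 called 1, Il7r (higher, adjusted p = 0.00549), where it called 2.32% of all genes higher. At an unadjusted p under 0.05 edgeR had 5 of 30 higher (16.7%, against 6.17% of all genes) and 0 lower (6.26% of all genes). The groups did not overlap for 6 of 30, all higher (against 6.69% of all genes). Both counts of higher genes, 5 and 6, include Cd79a, which passed the filter only with knockout libraries counted. Without both libraries numbered 2, 28 of 30 fold changes were positive (43.6% of all genes) with a median of 0.79, edgeR called 0, and 1 gene (Gzma) had an unadjusted p under 0.05, higher, against 2.34% of all genes.

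**Figure D2:**
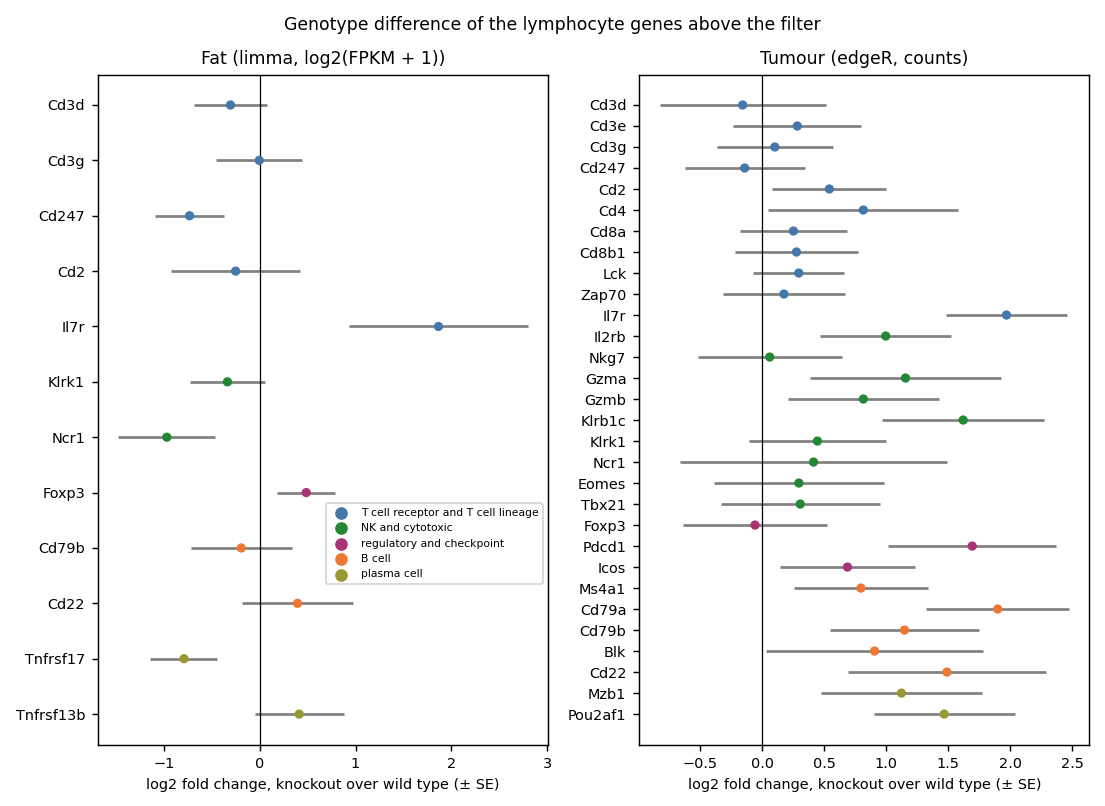
Log2 fold change (knockout over wild type, points, with SE as bars) of the 12 lymphocyte genes tested in fat and the 30 tested in tumours, coloured by lineage. In tumours 27 points lie above 0, from -0.16 (Cd3d) to 1.97 (Il7r), and in fat 4 of 12 do.

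Il7r stood at 1.71, 1.72, 1.35 and 3.06 CPM in wild type 1 to 4 and at 9.43, 9.37 and 4.27 CPM in knockout 1 to 3, or 19 to 64 counts against 101 to 323. Every knockout library was above every wild-type library. The log2 fold change was 1.97 (SE 0.49, edgeR adjusted p = 0.195), between 1.80 and 2.28 when single libraries were left out, and 1.75 without both libraries numbered 2 (adjusted p = 0.769).

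The chains of the T cell receptor complex did not follow it. Cd3g stood at 1.55, 2.76, 2.05 and 1.82 CPM in wild type and at 2.02, 1.48 and 3.09 CPM in knockout, with complete overlap (log2 fold change 0.10, SE 0.47, edgeR adjusted p = 0.951). Cd3d and Cd3e had -0.16 and 0.28, and Cd247 had -0.14. Lck, the kinase that starts receptor signalling, stood at 3.25, 3.93, 3.54 and 3.16 CPM and at 3.68, 4.38 and 4.70 CPM (log2 fold change 0.29, SE 0.37, adjusted p = 0.784). Cd8a spanned 2.41 to 4.35 CPM in wild type and 2.70 to 4.64 CPM in knockout. Cd4, the helper T cell co-receptor, stood at 1.39, 1.21, 0.0708 and 1.24 CPM in wild type and at 1.76, 1.80 and 1.65 CPM in knockout. Its groups did not overlap, and wild type 3 had 1 count (log2 fold change 0.81, SE 0.77, adjusted p = 0.708). Without Il7r the T cell list summed to 14.5 to 21.2 CPM in wild type and 17.5 to 23.3 CPM in knockout, overlapping.

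NK and cytotoxic genes were all positive in sign (9 of 9 tested, against 43.2% of all genes), and most overlapped. Some of these signs turned when single libraries were left out. The lowest fold changes were then -1.08 for Ncr1, -0.55 for Nkg7, -0.32 for Tbx21 and -0.014 for Eomes. Ncr1, Tbx21 and Eomes passed the filter only with knockout libraries counted. Klrb1c stood at 0.373, 1.42, 1.06 and 1.39 CPM in wild type and at 1.66, 2.29 and 5.88 CPM in knockout, with no overlap (log2 fold change 1.62, SE 0.65, edgeR adjusted p = 0.370). Knockout 3 was far above the others, and leaving out single libraries moved the difference between 0.91 and 1.94. Gzmb stood at 1.49, 7.19, 3.89 and 5.88 CPM and at 5.54, 5.40 and 13.4 CPM (log2 fold change 0.81, SE 0.61, adjusted p = 0.636). Nkg7 stood at 1.71, 3.35, 4.03 and 2.25 CPM and at 1.31, 2.50 and 5.03 CPM (log2 fold change 0.06, SE 0.58, adjusted p = 0.978). For each of these the highest library was knockout 3. Gzma reached 4.94 CPM in knockout 1 and 0.526 to 2.13 CPM elsewhere. Il2rb, a receptor chain for interleukin-2, stood at 2.05 to 5.94 CPM in wild type and at 5.75 to 11.8 CPM in knockout. Eomes and Tbx21, the transcription factors of NK and effector T cells, were at most 1.06 CPM in every library.

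Pdcd1 and Ctla4 were high in knockout 1 and 2, and Icos and Foxp3 overlapped between the groups. Pdcd1 stood at 0.693, 0.753, 0.283 and 0.908 CPM in wild type and at 3.33, 2.53 and 0.635 CPM in knockout, where the last lies within the wild-type range (log2 fold change 1.69, SE 0.68, edgeR adjusted p = 0.365). Ctla4 was below the filter, with 2, 2, 2 and 3 counts in wild type and 46, 27 and 4 in knockout. Fitted without the filter its log2 fold change was 3.16 (SE 1.02, adjusted p = 0.374). Icos stood at 0.320, 0.795, 1.06 and 0.717 CPM and at 1.51, 0.929 and 1.06 CPM (log2 fold change 0.69, SE 0.55, adjusted p = 0.656). Foxp3 had -0.06.

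B cell genes were positive in 5 of 5 tested, against 43.2% of all genes. Cd79a stood at 0.640, 0.335, 0.283 and 0.861 CPM in wild type and at 1.26, 2.61 and 2.12 CPM in knockout, or 4 to 18 counts against 25 to 90, with no overlap. Its log2 fold change was 1.90 (SE 0.57, edgeR adjusted p = 0.248), and 1.49 without both libraries numbered 2 (adjusted p = 0.824). It was at the filter's level in 2 wild-type and 3 knockout libraries, so it was tested only because of its knockout values. Cd79b stood at 1.01, 0.669, 2.41 and 0.956 CPM and at 2.47, 4.21 and 1.65 CPM (log2 fold change 1.15, SE 0.60, adjusted p = 0.486). Blk stood at 0.480, 0.669, 0 and 0.622 CPM and at 0.806, 0.813 and 0.931 CPM, with no overlap (log2 fold change 0.90, SE 0.87, adjusted p = 0.715). Cd22 reached 7.05 CPM in knockout 2, against 0.283 to 2.27 CPM elsewhere. Ms4a1 overlapped, at 0.526 to 1.59 CPM and 1.26 to 2.32 CPM.

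Among plasma cell genes, Pou2af1 stood at 0.960, 1.38, 3.19 and 3.97 CPM in wild type and at 5.54, 8.21 and 5.92 CPM in knockout, with no overlap (log2 fold change 1.47, SE 0.57, edgeR adjusted p = 0.357; 1.09 without both libraries numbered 2, adjusted p = 0.855). Mzb1 stood at 0.960, 1.13, 4.60 and 3.97 CPM and at 4.03, 6.18 and 7.15 CPM (log2 fold change 1.12, SE 0.65, adjusted p = 0.537). Wild type 1 and 2 were low for both genes and wild type 3 and 4 closer to knockout. Tnfrsf13b, below the filter, had 2, 1, 0 and 5 counts in wild type and 10, 32 and 9 in knockout (unfiltered log2 fold change 2.58, SE 1.13, adjusted p = 0.477). Tnfrsf17, the gene that did not overlap in fat, had 3, 3, 3 and 15 counts and 4, 18 and 7 counts.

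**Figure D3:**
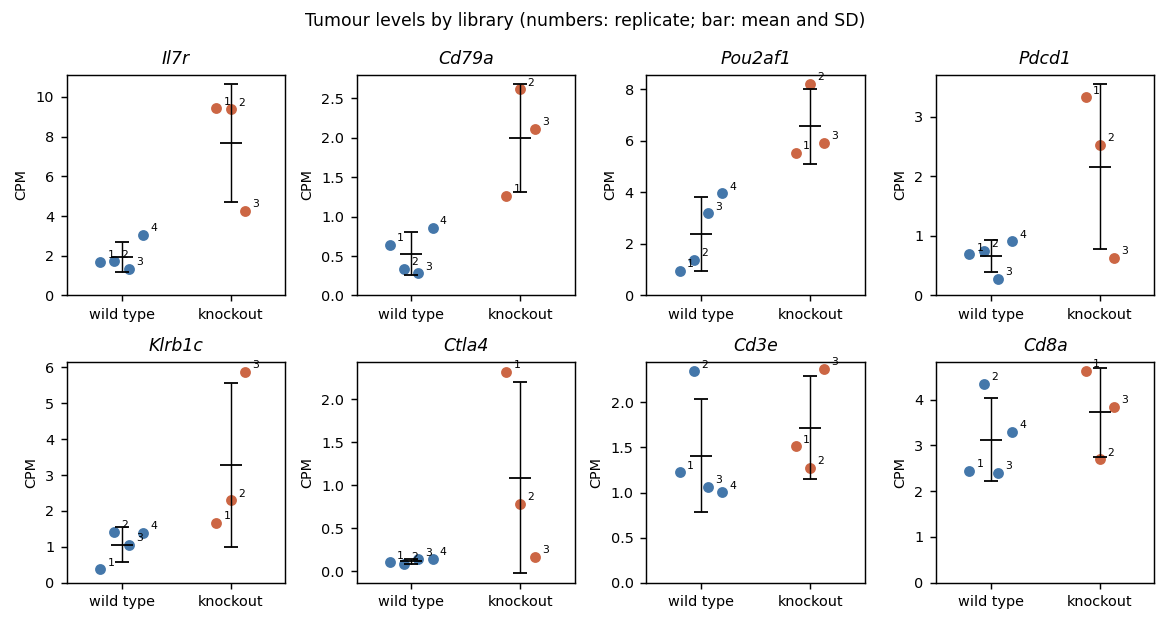
CPM of 8 lymphocyte genes in each tumour library (points, numbered by replicate), with the group mean and SD (bars), n = 4 wild type and 3 knockout. Il7r, Cd79a, Pou2af1 and Klrb1c do not overlap between groups, Pdcd1 and Ctla4 are high in knockout 1 and 2, and Cd3e and Cd8a overlap.

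Summed over the 36 genes, tumours stood at 34.9, 57.0, 47.7 and 54.0 CPM in wild type and at 77.8, 87.2 and 96.4 CPM in knockout. Knockout 3 was highest for 15 of the 36 genes, knockout 2 for 9 and knockout 1 for 6. The B and plasma cell genes summed to 7.52 to 13.2 CPM in wild type and 18.5 to 33.3 CPM in knockout. The 3 CD3 genes summed to 3.41 to 6.94 CPM and 4.09 to 7.02 CPM. In fat the 36 genes summed to 42.6, 70.6 and 36.6 FPKM in wild type and to 49.7, 88.8 and 30.9 FPKM in knockout, with knockout 2 highest and knockout 3 lowest.

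**Figure D4:**
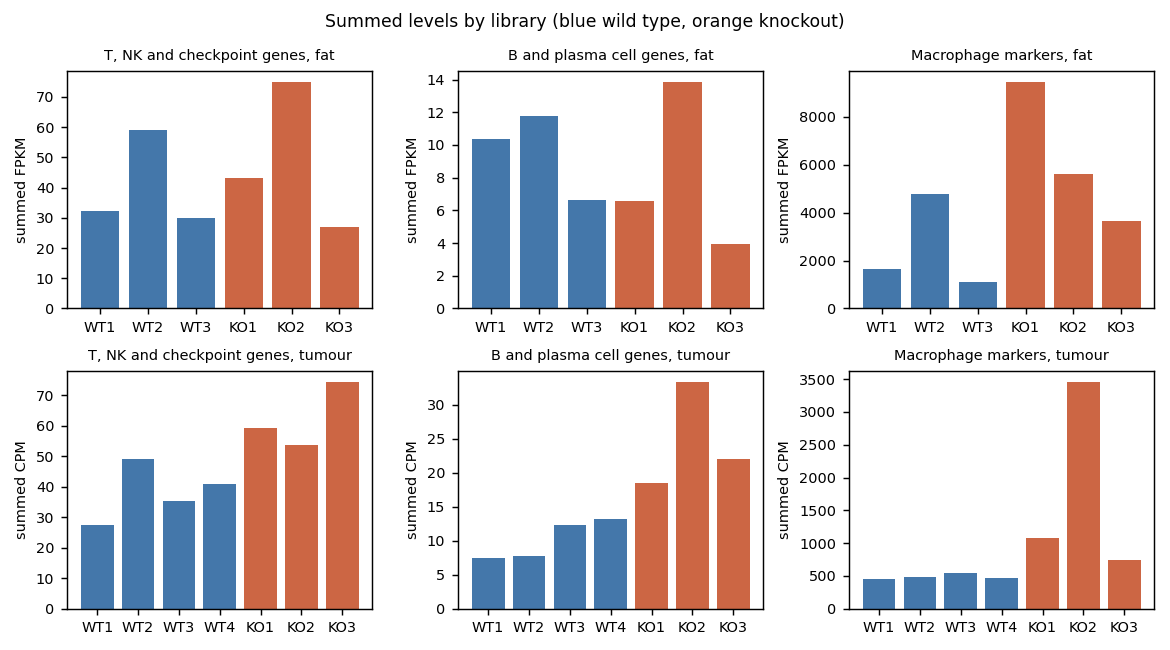
Summed level of the T, NK and checkpoint genes (26), the B and plasma cell genes (10) and macrophage markers (14) in each library, in FPKM for fat (top) and CPM for tumours (bottom), with axes from 0. In tumours all 3 sums are higher in each knockout library than in any wild-type library; in fat the macrophage sum is lowest in wild type 1 and 3, and the lymphocyte sums overlap between groups.

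Some lists of markers of other cells also differed between the tumour groups, and others did not. Fold changes were positive for 5 of 9 dendritic cell genes, 4 of 10 adipocyte genes and 5 of 11 prostate epithelial genes. The sums of these lists overlapped between the groups. In tumours, 14 macrophage markers, none at 0 throughout, summed to 448 to 542 CPM in wild type and to 1084, 3452 and 751 CPM in knockout. All 14 had an unadjusted p under 0.05 and were higher (6.17% of all genes), with a median log2 fold change of 1.92. Without both libraries numbered 2 the median was 0.82, and 7 of the 14 had an unadjusted p under 0.05 (2.34% of all genes higher in that fit). The general leukocyte gene Ptprc (CD45) stood at 19.0, 27.9, 23.8 and 27.0 CPM in wild type and at 36.3, 83.9 and 39.0 CPM in knockout. Of 10 general leukocyte genes, Ptprc among them, 9 were positive and 1 negative, at -2.38, with a median of 1.16. With edgeR 8 of the 10 had an unadjusted p under 0.05 and were higher (6.17% of all genes). The groups did not overlap for 8, all higher (6.69% of all genes). Without both libraries numbered 2 the median was 0.86, and 2 of the 10 had an unadjusted p under 0.05. The sums of the 10 overlapped, at 140 to 591 CPM in wild type (591 in wild type 4) and 238 to 556 CPM in knockout. The CD3 genes summed to 14.5% to 29.2% of Ptprc in wild type and to 14.0%, 4.88% and 18.0% in knockout. Markers of fibroblasts (7 of 8 positive, sums 857 to 1898 CPM and 1824 to 10420 CPM) and endothelium (8 of 8 positive, 72.6 to 158 CPM and 176 to 343 CPM) were mostly higher as well. Cell cycle genes (10 of 10 negative) summed to 914 to 2873 CPM in wild type and to 77.3 to 318 CPM in knockout. The 8 neuroendocrine genes summed to 1297 CPM in wild type 1 and to 49.1 to 76.9 CPM in the other tumours. Lymph node stroma markers, with 2 of 8 at 0 throughout, spanned 22.0 to 100.4 CPM and 47.7 to 255 CPM. The part of tissue makeup in the lymphocyte values was not tested.
In fat the macrophage sum was 1658, 4778 and 1114 FPKM in wild type and 9447, 5609 and 3636 FPKM in knockout, with the same 4 libraries high as for Il7r. Ptprc stood at 13.2, 38.1 and 7.84 FPKM and at 39.2, 29.8 and 8.36 FPKM. Adipocyte markers (9 of 10 negative) summed to 19030 to 23760 FPKM in wild type and 10610 to 17330 FPKM in knockout. Cell cycle genes (9 of 9 tested positive) summed to 6.27 to 39.4 FPKM and 16.1 to 161 FPKM. Their part in the Il7r values was not tested.

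Whether the genotype difference depended on the tissue was tested for the 10 genes above the filter in both. This fit set log2(CPM + 1) in tumours, not scaled for gene length, beside log2(FPKM + 1) in fat. Its tumour effects are therefore not the edgeR fold changes given above. For Il7r those separate fits gave 1.97 in tumours (edgeR) and 1.87 in fat (limma). The limma interaction called 0 of the 10 (adjusted p 0.602 to 0.979), against 0% of 12390 genes, and 0 had an unadjusted p under 0.05 (11.7% of all genes). For Il7r the effect in tumours minus that in fat was -0.35 in this fit (SE 1.03, adjusted p = 0.934). Ncr1 had 1.07 (SE 0.70, adjusted p = 0.602), Cd79b 0.93 (SE 0.65, adjusted p = 0.641) and Cd247 0.67 (SE 0.49, adjusted p = 0.658). For these 10 genes a difference between the tissues was therefore not detectable at this number of libraries. Cd79a, Klrb1c, Pdcd1 and Pou2af1 were below the filter in fat and were not part of this fit.

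Other lymphocyte genes were read from 2 further lists, which hold more abundant ones. Of 43 T and NK genes 39 were in the tables, with 12 tested in fat and 32 in tumours, and of 34 B and plasma cell genes 23 were, with 12 and 18 tested. The constant genes of the T cell receptor and of antibodies on these lists, such as Trac and Igkc, were not found under these symbols in either tissue. In fat 0 of these were called, while 2 of the 24 had an unadjusted p under 0.05 and were higher (6.88% of all genes) and 3 lower (8.14%). Havcr2 (TIM-3), an inhibitory receptor that macrophages also carry, stood at 0.873, 2.47 and 0.776 FPKM in wild type and at 28.6, 6.59 and 2.93 FPKM in knockout. Tigit, another inhibitory receptor, stood at 1.45, 1.68 and 1.87 FPKM and at 5.35, 2.11 and 4.71 FPKM. Cxcr6, a homing receptor of tissue T cells, was lower, at 5.43, 5.47 and 6.00 FPKM and 3.04, 3.26 and 2.62 FPKM (limma log2 fold change -0.74, SE 0.22, adjusted p = 0.223). Bank1, a B cell scaffold, had -1.03 (adjusted p = 0.281) and Ciita, the regulator of MHC class II genes, -1.36 (adjusted p = 0.331).
In tumours edgeR and voom called 0 of the 50 tested, as they called 0% of all genes. DESeq2 called 3, among them Derl3 (lower) and Havcr2 (higher), where it called 2.32% of all genes higher. With edgeR 7 of the 50 had an unadjusted p under 0.05 and were higher (6.17% of all genes) and 2 lower (6.26%). Havcr2 stood at 1.55, 2.22, 1.63 and 2.58 CPM in wild type and at 6.25, 8.82 and 4.53 CPM in knockout (edgeR log2 fold change 1.71, SE 0.43, adjusted p = 0.195). Its groups did not overlap. Btk, a kinase of B and myeloid cells, had 1.77 (adjusted p = 0.309). Jchain, for the chain that joins antibody units, was the most abundant gene of these lists in CPM and was named after its values were seen. It stood at 58.2, 106, 810 and 330 CPM in wild type and at 254, 417 and 1051 CPM in knockout, with overlap (0.82, SE 0.88, adjusted p = 0.746). In fat, under its older symbol Igj, it ran from 4.36 to 16.0 FPKM in wild type and from 5.87 to 19.5 FPKM in knockout. Lower in tumours were Derl3, of protein export from the endoplasmic reticulum (-1.56, adjusted p = 0.195), and Bank1 (-1.12, adjusted p = 0.366). Bank1 thus had the opposite sign to the B cell genes Cd79a, Cd79b and Blk, at 11.3 to 22.2 CPM in wild type and 3.63 to 10.5 CPM in knockout.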

How the data were processed

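Per the labels, polyadenylated RNA was made into directional libraries and read as single ends of 75 bases on a NextSeq instrument. Per the submitters' processing notes, STAR, DESeq2 and mm10 were used. Their read counter was not given in the sources used here. For tumours the authors deposited raw counts per gene. The deposited fat table names no unit, and its values were read as FPKM from their sums and length dependence. Since the fat table does not hold counts, its log2(FPKM + 1) values were tested with limma 3.58.1 (trend, R 4.3.3) where the mean reached 1 FPKM, and tumours with edgeR 4.0.16 (TMM, filterByExpr minimum count 10, quasi-likelihood). DESeq2 1.42.0 and voom were alternatives. P-values are two-sided and adjusted over all genes tested (Benjamini-Hochberg, threshold 0.05). CPM use TMM library sizes. Fat reads were estimated approximately from value steps with GENCODE M21 exon lengths. Fits were tested on simulated data. Genes named with fold changes were those with an unadjusted p under 0.05, non-overlapping groups or 1 of the 2 highest means of their lineage; a few others were named after their values were seen. Some genes that this rule selects are not reported here. The genes and lists were chosen with earlier results of these data known.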

Additional observations from a re-analysis of the deposited data

Results flagged for a closer look

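The 4 wild-type tumours were examined for single libraries far from the others, in 41 values, of which 4 stood apart. Such a check picks out about 1 in 20 groups by chance. Cd3d was at 3.82 CPM in wild-type tumour 3 and at most 1.13 CPM in the other wild-type tumours. Cd4 was at 0.0708 CPM in the same tumour, against 1.21 to 1.39 CPM in the others, so that a CD3 chain was highest where this co-receptor was lowest. Cd3e was at 2.34 CPM in wild-type tumour 2 and at 1.00 to 1.23 CPM in the others. Tnfrsf17 was at 0.717 CPM in wild-type tumour 4 and at most 0.212 CPM in the others, on 15 and 3 counts.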

How the results depend on the processing

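The count of 0 genes called was the same under every alternative run for fat, tumours and the tissue difference, except that DESeq2 called 1 gene in tumours. The median log2 fold change in fat was -0.54 with a pseudocount of 0.1, 0.57 with a mean of at least 5 FPKM, which left 2 genes, and ran from -0.46 to 0.28 when single libraries were left out. In tumours it was 0.79 without both libraries numbered 2, and from 0.39 (without knockout 3) to 0.80 (without wild type 2) when single libraries were left out. Signs turned in several genes, not all of them near 0. In tumours Nkg7 had -0.040 with voom and -0.16 with the replicate block, and ran from -0.55 to 0.41 without single libraries. In the same way Cd3g ran from -0.21 to 0.32, Cd3d from -0.43 to 0.64 and Tbx21 from -0.32 to 0.62. Ncr1, at 0.41 in the main fit, ran from -1.08 to 0.93. Cd3e, Cd8b1, Zap70, Eomes and Foxp3 also crossed 0 without single libraries. In fat without single libraries Cd22 ran from -0.044 to 0.91 and Cd79b from -0.68 to 0.24, and Cd79b had -0.95 with a pseudocount of 0.1 and -0.85 without both libraries numbered 2. The cause was not tested. With group means subtracted, same-numbered wild-type and knockout libraries correlated at -0.05, 0.15 and 0.15 in fat and at 0.16, 0.08 and 0.32 in tumours. In groups this small such values cannot show whether the numbers mark shared origins or batches, which the labels do not state. With the replicate block 0 genes were called in either tissue, and 1 in fat and 6 in tumours had an unadjusted p under 0.05. The edgeR count of 5 genes in tumours at an unadjusted p under 0.05 was 2 (without wild type 2 or knockout 2), 3 (without wild type 1 or knockout 1) or up to 5 without single libraries.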
